A study of Mus musculus with 264 samples.

Results

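The comparison concerns neurospheres of 1 culture set, Set-A, grown in 100 mM ethanol or in medium without added ethanol. It comprised 33 neurospheres at 100 mM and 34 at 0 mM, taken by the ethanol and culture set labels from 264 neurospheres in the series. A neurosphere is a free-floating ball of neural stem and progenitor cells. It grows in medium with the mitogens bFGF and EGF, without attachment to a dish. All of them came from C57/Bl6 mouse fetuses at gestational day 12.5, from the dorsal telencephalon, which gives rise to the cerebral cortex, and cells of 2 litters were pooled at each isolation. Set-A was measured in 2 runs, named here from the Ch1 and Ch2 prefixes of the sample titles. Run 1 held 11 neurospheres at each of these doses, and run 2 held 23 at 0 mM and 22 at 100 mM. Ethanol was present in the medium for 5 days, with refeeding in between. The question is whether exposure changes the transcripts of individual spheres.

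Neural progenitors of this region first divide to renew themselves and later give rise to neurons and then glia. Neurosphere culture keeps many of the cells dividing, and a single sphere can hold stem cells beside more mature progeny. Alcohol during pregnancy is known to disturb the growth and maturation of this tissue. Each neurosphere was lysed whole, so fewer cells that express a transcript and less transcript per cell cannot be told apart.

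Messenger RNA was read by quantitative PCR with 75 assays, each with 1 primer pair. The value is the cycle number at which product appears, an inverted log2 scale on which 1 cycle earlier is about 1 doubling of template if each primer pair doubles its product every cycle. The assays carry codes that the files do not pair with genes, and 0 of 75 codes matched a mouse gene name. Roles of single transcripts, cell type markers and sequences are therefore not given, and the dorsal telencephalic identity was not checked against markers. The 67 neurospheres had 382 missing values of 5025 (7.6%), read as not detected, and between 58 and 74 detected assays each. The labels do not say whether the 2 runs held spheres of the same culture. P-values below measure the spread between neurospheres of 1 culture set, not between cultures.

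Product appeared earlier at 100 mM, and spheres were smaller. The values of each run are given separately below. Within single runs the cycle number difference passed only in run 2, and the diameter difference only in run 1. Neither difference between the runs passed its test after adjustment, which does not show that the runs agreed. Averaged over 50 widely detected assays (present in 95% or more of the 264 neurospheres), the cycle number was 13.7 ± 2.23 in the 34 control spheres and 12.3 ± 1.79 in the 33 spheres at 100 mM (mean ± SD). Within run the difference was -1.39 cycles (SE 0.49, p = 0.00567, two-sided permutation test within run, 0.0198 adjusted over 7 single-value comparisons).

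In run 1 the 0 mM neurospheres ranged from 8.92 to 14.3 cycles with a median of 12.8, and the 100 mM neurospheres from 8.78 to 15.5 with a median of 12.5. The groups overlapped over almost their whole range, and the difference of -0.26 cycles (SE 0.67, permutation p = 0.708) did not pass. In run 2 the 0 mM neurospheres ranged from 7.08 to 17.96 cycles with a median of 14.9, and the 100 mM neurospheres from 7.78 to 14.2 with a median of 13.03. All 22 neurospheres at 100 mM lay below the 0 mM median there, and the difference was -1.94 cycles (SE 0.64, permutation p = 0.00392). The 100 mM means of the runs were close, at 12.4 and 12.3 cycles, while the 0 mM means were 12.6 and 14.3. The run 2 difference minus the run 1 difference was -1.68 cycles, which did not pass (permutation p = 0.0748, 0.224 adjusted over 6 such comparisons).

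**Figure D1:**
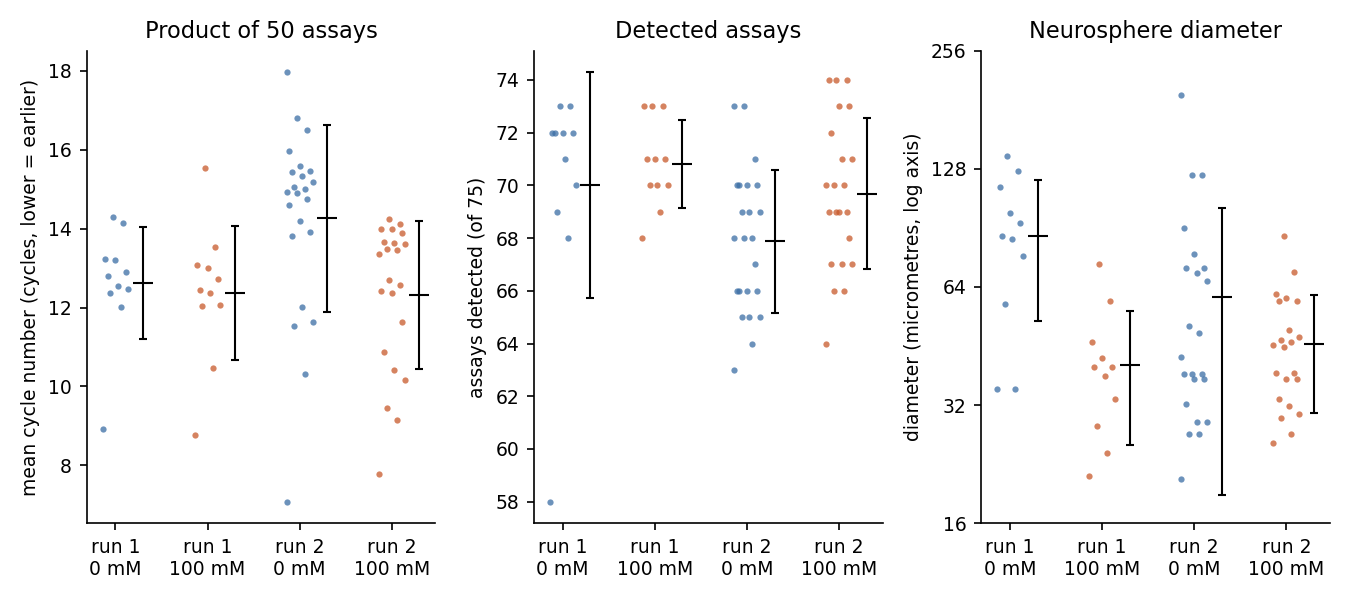
Mean cycle number over 50 assays, number of detected assays of 75, and diameter (log axis) of each Set-A neurosphere by run and dose, with 1 point per neurosphere and the mean ± SD beside it. In run 2 the 100 mM points for cycle number all lie below the 0 mM median of 14.9, and in run 1 the 100 mM diameters all lie below the 0 mM median of 86.1 micrometres.

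A few spheres in each group gave very early product. The 4 earliest of the 67 were 1 from each combination of run and dose, and without them, a choice made after seeing the data, the difference was -1.48 cycles (SE 0.40, permutation p = 0.00046). Leaving out any single neurosphere gave between -1.60 and -1.23 cycles. The difference was thus no smaller with those spheres set aside.

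Diameter, taken from an image of each sphere before lysis, was 68.7 ± 40.5 micrometres in controls (SD, n = 34) and 44.01 ± 15.2 micrometres with ethanol (SD, n = 33). On the log2 scale the difference within run was -0.49 (SE 0.17, permutation p = 0.00388, 0.0198 adjusted over 7 comparisons). In run 1 diameters ranged from 35.3 to 138 micrometres at 0 mM with a median of 86.1, and from 21.1 to 73.3 at 100 mM with a median of 40.1. Of the 11 spheres at 0 mM, 8 were larger than every 100 mM sphere of that run, and the log2 difference was -1.05 (SE 0.26, permutation p = 0.00102). In run 2 diameters ranged from 20.7 to 197 micrometres at 0 mM with a median of 42.5, and from 25.6 to 86.4 at 100 mM with a median of 45.3. The medians thus stood in the opposite order in run 2, the groups overlapped, and the log2 difference was -0.22 (SE 0.20, permutation p = 0.278). The difference between the runs was 0.83 on the log2 scale (permutation p = 0.0152), which did not pass after adjustment over 6 comparisons (0.0911).

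The labels also sort spheres into the size classes S, M and L. In run 1 the 0 mM group had 0 S, 2 M and 9 L spheres, and the 100 mM group had 4 S, 5 M and 2 L. In run 2 the counts were 6, 8 and 9 at 0 mM and 6, 10 and 6 at 100 mM. In run 2 the share of L spheres was 39.1% at 0 mM and 27.3% at 100 mM, while the S shares were nearly equal at 26.1% and 27.3%.

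The diameters were recorded on different grids in the groups. All 67 were whole multiples of 0.3457 micrometres. All 34 at 0 mM were also multiples of 1.0371 micrometres, against 9 of 33 at 100 mM, whereas 32 of 33 at 100 mM were multiples of 0.6914 micrometres, against 16 of 34 at 0 mM. No source used here says what sets the grid, and its part in the diameter difference was not tested.

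Size and signal were not clearly linked within a group. Pearson's r between log2 diameter and mean cycle number was -0.14 in run 1 at 0 mM (n = 11, permutation p = 0.678) and 0.23 in run 1 at 100 mM (n = 11, permutation p = 0.499). It was 0.08 in run 2 at 0 mM (n = 23, permutation p = 0.701) and 0.32 in run 2 at 100 mM (n = 22, permutation p = 0.146). The 4 adjusted values lay between 0.586 and 0.701. Spearman's rho was -0.10, 0.28, 0.0015 and 0.23 in the same order, with permutation p of 0.760, 0.407, 0.996 and 0.307. Without the 2 spheres farthest from the median diameter r was -0.29, 0.21, 0.04 and 0.43. A positive r means later product in larger spheres. With log2 diameter as a covariate the 100 mM difference in mean cycle number was -1.30 cycles (SE 0.53, permutation p = 0.0184), and with size classes within run as strata, added after seeing the data, it was -1.38 over the 34 and 29 spheres whose class held both doses (SE 0.54, permutation p = 0.0157). In run 1, where the diameters differed most, the covariate gave -0.14 cycles (SE 0.93).

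Without any normalization, 67 of 72 assays tested (those detected in at least 50% of all neurospheres) appeared earlier at 100 mM. In run 1 the count was 42 of 72 and in run 2 it was 70 of 72. The median assay was higher by 1.19 log2 units over both runs, 0.19 in run 1 and 1.66 in run 2. On this scale limma called 16 of 72 assays at an adjusted p under 0.05 (22.2%), 16 higher and 0 lower.

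To set this overall difference aside, each neurosphere was centred on its own mean cycle number over the 50 assays, with the sign reversed, so a larger value is more transcript. These relative levels, in log2 units, say which transcripts changed against the others. At 100 mM 9 of 72 assays changed (12.5%, limma, Benjamini-Hochberg adjusted p under 0.05, run as covariate, all 4 doses of Set-A in the fit), 2 higher (2.78%) and 7 lower (9.72%). The 9 changes, selected by a test on these same values, had a median size of 0.94 log2 units, against 0.39 over all 72 assays. Both runs agreed in sign for 7 of these 9 assays, and for 39 of all 72. The split depended on the scaling. Centring on the median gave 2 rises and 13 falls, and the counts were 4 and 6 with missing values set to 30 cycles, and 4 and 5 when centred on the 5 steadiest assays or on the 18 assays detected in every neurosphere. Adding each sphere's mean cycle number to the model gave 11 calls, 3 higher and 8 lower, and 7 of them were among the 9.

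Assay A031 rose in both runs. In run 1 its relative level at 0 mM ranged from -6.28 to -0.96 with a median of -3.06, and at 100 mM from -2.55 to 0.80 with a median of -0.05. In run 2 it ranged from -7.55 to -0.03 with a median of -2.31 at 0 mM, and from -3.04 to 1.48 with a median of 0.02 at 100 mM. All 11 spheres at 100 mM in run 1 and 20 of 22 in run 2 were above the 0 mM median of their run. Of these, 8 of 11 and 11 of 22 were above every 0 mM sphere.

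Over both runs A031 rose 5.54-fold (log2 change 2.47, SE 0.34, limma adjusted p = 2.6e-09), with 2.83 in run 1 (SE 0.59) and 2.30 in run 2 (SE 0.41). It was detected in all 67 neurospheres. It was the only assay that passed in each run alone with the same direction, and the runs differed by -0.53 (adjusted p = 0.723). With log2 diameter as a covariate it was 1.96 (SE 0.33, adjusted p = 1.35e-06), and without normalization 3.85 (SE 0.67). The spread of A031 was smaller at 100 mM in both runs, with an SD of 1.04 against 1.78 in run 1 and 1.16 against 1.92 in run 2, a difference that did not pass (limma on absolute deviations, adjusted p = 0.307).

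Assay A016 also rose, mainly in run 1. There its relative level ranged from -6.84 to 1.16 at 0 mM with a median of -0.14, and from 1.17 to 6.57 at 100 mM with a median of 3.79. The groups of run 1 did not overlap, with all 11 spheres at 100 mM above every 0 mM sphere. In run 2 it ranged from -3.54 to 3.08 at 0 mM with a median of 0.89, and from -1.66 to 3.36 at 100 mM with a median of 1.96, and the groups overlapped broadly.

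The change in A016 was 4.71 in run 1 (SE 0.71, limma adjusted p = 1.72e-06) and 1.10 in run 2 (SE 0.51, adjusted p = 0.147), and the difference between runs passed (-3.61, SE 0.89, adjusted p = 0.00142). Over both runs the log2 change was 2.29 (SE 0.44, adjusted p = 3.28e-05), 4.88-fold higher, a value between those of the runs. Without normalization the run difference was -1.93 and did not pass (adjusted p = 0.413). At 0 mM the runs did not differ past the threshold in A016 (1.20, SE 0.62, adjusted p = 0.099), while at 100 mM run 2 was lower by a log2 difference of -2.41 (SE 0.63, adjusted p = 0.000939).

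Assay A001 had the largest fall. In run 1 its relative level ranged from 0.0042 to 7.21 at 0 mM with a median of 4.70, and from -4.70 to 3.17 at 100 mM with a median of -1.85, over the 10 of 11 spheres that detected it. In run 2 it ranged from -4.37 to 1.62 at 0 mM with a median of -2.11, and from -4.88 to -0.80 at 100 mM with a median of -2.71. At 0 mM the spheres of run 1 thus stood far above those of run 2, while at 100 mM the runs lay closer together.

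A001 fell by 5.57 on the log2 scale in run 1 (SE 1.11, limma adjusted p = 0.000274), and in run 2 its change was -0.82 (SE 0.46, adjusted p = 0.248). The difference between runs passed (4.76, SE 1.03, adjusted p = 0.000329). Over both runs it fell by 2.32 (SE 0.54, adjusted p = 0.000806). Within 0 mM, run 2 was lower than run 1 by a log2 difference of -6.08 (SE 0.71, adjusted p = 7.37e-13). This exceeds the -5.57 between doses in run 1. Without normalization the change of A001 over both runs was -0.91 (adjusted p = 0.279), with -5.35 in run 1 and 1.12 in run 2.

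Assay A035 fell less. In run 1 its relative level ranged from -3.19 to -0.46 at 0 mM with a median of -2.13, and from -4.56 to -0.02 at 100 mM with a median of -3.48. In run 2 it ranged from -2.29 to 1.83 at 0 mM with a median of -1.07, and from -2.99 to 0.28 at 100 mM with a median of -1.89. The groups overlapped in both runs, with 10 of 11 and 16 of 22 spheres at 100 mM below the 0 mM median.

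Over both runs A035 fell by 0.94 (SE 0.26, limma adjusted p = 0.0054), with -1.33 in run 1 (SE 0.51, adjusted p = 0.0769) and -0.74 in run 2 (SE 0.31, adjusted p = 0.101), and the runs differed by 0.59 (SE 0.56, adjusted p = 0.674). Its direction was that of a fall against the other assays. In cycles that were not normalized the change was 0.44 (adjusted p = 0.591), with -1.08 in run 1 and 1.20 in run 2. With log2 diameter as a covariate it was -0.76 (SE 0.27, adjusted p = 0.0535). The other 5 assays called lower fell by between 0.42 and 1.90, and 3 of them were lower in both runs. Without normalization their changes lay between -0.02 and 0.91 and did not pass, so these too were falls against the other assays. The assay that fell by 1.90 changed by 0.18 in run 1 and -3.12 in run 2. With mean cycle number as a covariate its change was -0.58 (limma adjusted p = 0.219).

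**Figure D2:**
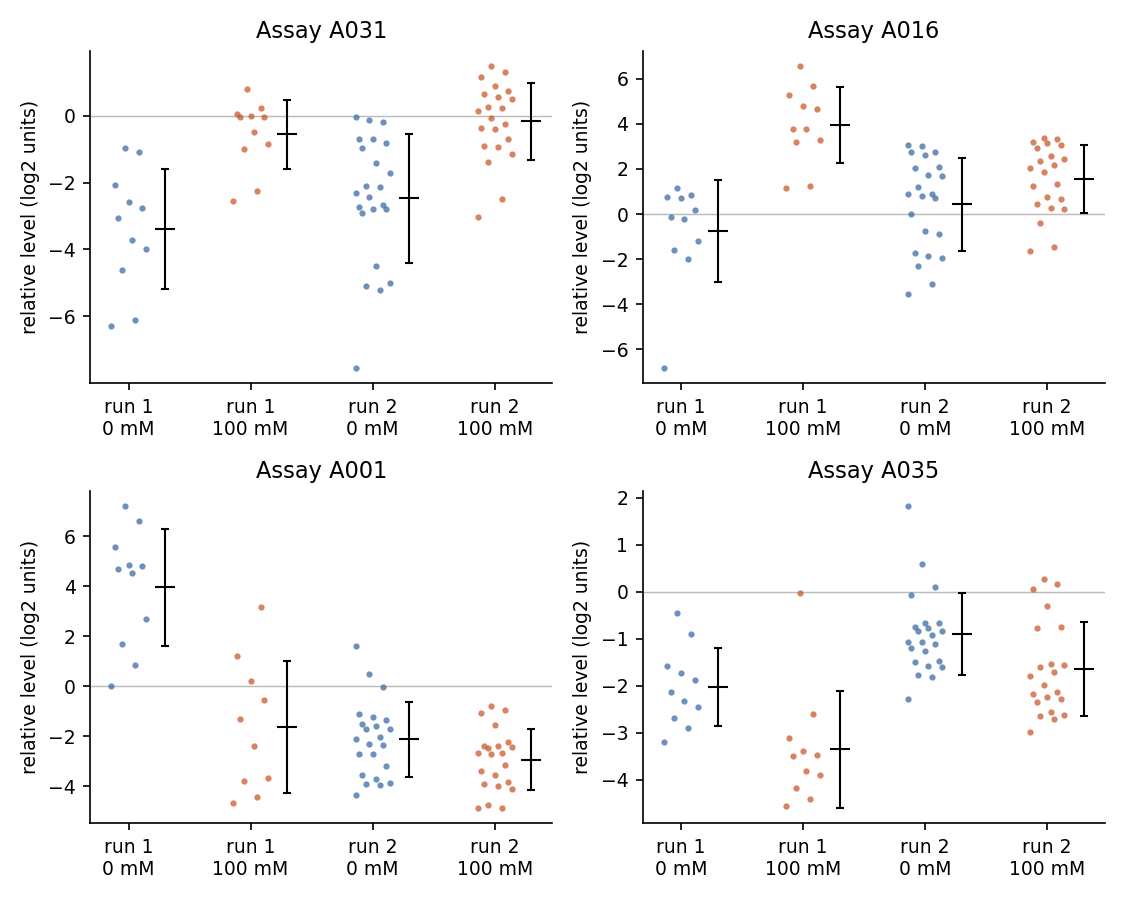
Relative level in log2 units (minus the cycle number, centred per neurosphere on 50 assays) of assays A031, A016, A001 and A035 in each Set-A neurosphere by run and dose, with mean ± SD beside the points. A031 is higher at 100 mM in both runs, A016 separates the doses without overlap only in run 1, and the 0 mM points of A001 have a median of 4.70 in run 1 and -2.11 in run 2.

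The runs of Set-A differed in the response of 7 of 72 assays (9.72%, limma dose by run term, adjusted p under 0.05). In 5 of the 7 the change had opposite signs in the runs, and 4 of the 7 were also among the 9 assays called over both runs. Selection by a difference between runs favours opposite signs. Over all 72 assays 39 had the same sign in both runs. Each run alone called 8 assays (11.1% each), but with opposite balance. Run 1 alone had 6 higher and 2 lower, and run 2 alone had 1 higher and 7 lower. Of these, 2 assays were called in both runs, A031 with the same direction and 1 with opposite directions. That assay was A004, named after its values were seen. Its level among detecting spheres was 5.64 higher in run 1 (SE 0.78, adjusted p = 5.64e-07) and -1.49 in run 2 (SE 0.46, adjusted p = 0.0312). The largest change in run 1 was 5.64 log2 units and in run 2 it was 3.12, while the median sizes were 0.59 and 0.52.

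The runs also differed without ethanol. Within 0 mM, 35 of 72 assays differed between run 2 and run 1 of Set-A (48.6%, limma), and within 100 mM 31 did (43.1%). The median sizes of these run differences over all 72 assays were 1.16 and 1.13 log2 units. Those of the dose change were smaller, at 0.59 within run 1 and 0.52 within run 2. Combined over both runs, where opposite signs cancel, the median size of the dose change was 0.39. Whether they come from the measurement or from the spheres cannot be told apart.

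**Figure D3:**
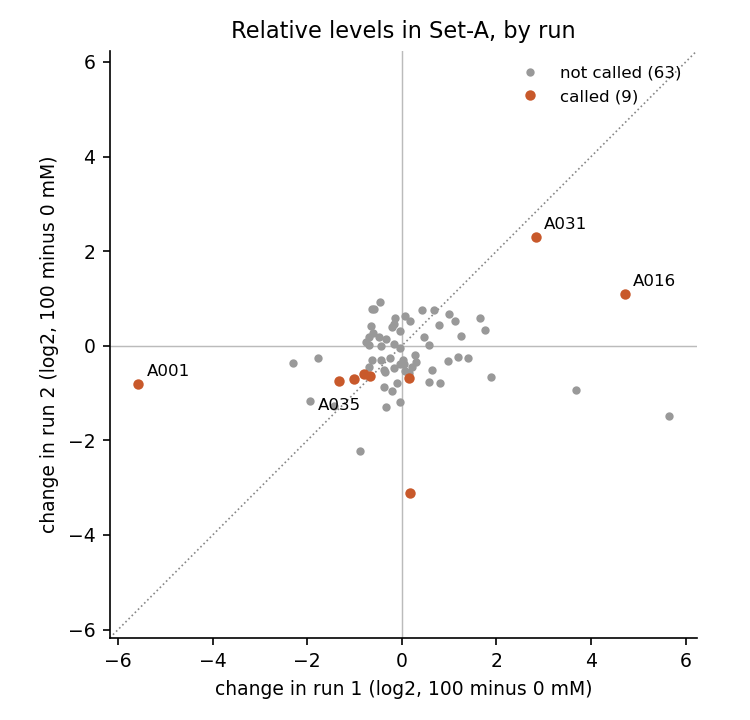
Change in relative level (log2, 100 minus 0 mM) of 72 assays in run 1 (horizontal) and run 2 (vertical) of Set-A, each run with its own 0 mM neurospheres, with the 9 assays called over both runs in orange and equal change dotted. A031 lies near the dotted line, A016 and A001 have large changes in run 1 and small ones in run 2, and 39 of the 72 points have the same sign in both runs.

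Detection was compared over 23 assays that 5% to 95% of the 132 Set-A neurospheres of all doses detected. It changed in 4 of them (17.4%, exact conditional Mantel-Haenszel test over runs, adjusted p under 0.05), 3 upward (13.0%) and 1 downward. The share was higher at 100 mM in 15 assays, lower in 7 and equal in 1, and the median difference was 5.61 percentage points. In run 1 alone 0 assays passed, with 0 at an unadjusted p under 0.05 by the same exact test, and in run 2 alone 4 passed. Intervals are not given, since a missing value is not a count of molecules, apart from an approximate upper limit where no sphere detected an assay.

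The largest gain was in assay A003, which 19 of 34 spheres detected at 0 mM (55.9%) and 32 of 33 at 100 mM (97.0%, exact test, adjusted p = 0.000889). In run 1 the counts were 10 of 11 and 11 of 11, and in run 2 they were 9 of 23 and 21 of 22. The gain thus lay in run 2, where 14 spheres at 0 mM lacked it. Those 14 had a median mean cycle number of 14.97, near the 14.7 of the 9 that detected it. Among detecting spheres the level of A003 did not pass (-0.58, SE 0.47, limma adjusted p = 0.445).

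Assay A021 gained in the same way, from 21 of 34 (61.8%) to 32 of 33 spheres (97.0%, exact test, adjusted p = 0.00252). In run 2 it was detected in 11 of 23 spheres at 0 mM and 21 of 22 at 100 mM. Here the spheres that lacked it at 0 mM gave later product across assays, with a median mean cycle number of 15.1 against 13.8 in those that detected it. Total signal thus moved with the detection of A021, and its part in the gain was not tested.

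The remaining assay that gained was detected in 0 of 34 spheres at 0 mM, which allows a share of up to 8.82%, and in 7 of 33 at 100 mM (21.2%, exact test, adjusted p = 0.0216). All 7 were in run 2, and their median mean cycle number was 10.4, against 13.5 in the 15 spheres of that run and dose without it.

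Assay A004 went the other way. All 34 spheres at 0 mM detected it, and 22 of 33 did at 100 mM (66.7%, exact test, adjusted p = 0.00183), with 8 of 11 in run 1 and 14 of 22 in run 2. In run 2 at 100 mM the 8 spheres without it had a median mean cycle number of 13.6, against 12.5 in the 14 that detected it. In run 1 the medians were 13.1 in the 3 spheres without it and 12.2 in the 8 with it. At this dose the spheres that lacked A004 thus had later product at the median in both runs. At 0 mM, where all spheres detected it, the median mean cycle number was 12.8 in run 1. In run 2 it was 14.9 there, with values up to 17.96. The part of total signal in the loss of A004 was not tested. Among detecting spheres of run 1 its cycle number ranged from 13.97 to 20.9 at 0 mM and from 8.84 to 16.2 at 100 mM. In run 2 the ranges were 11.4 to 24.4 and 12.6 to 22.2. In run 1 at 100 mM, then, fewer spheres gave a value for A004, and those that did gave it early.

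**Figure D4:**
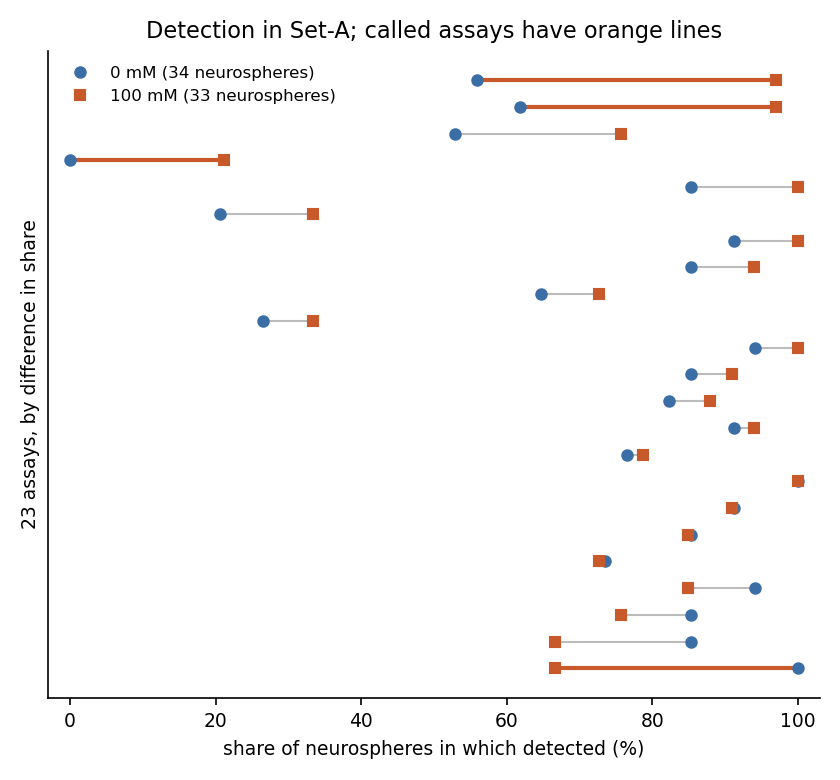
Share of Set-A neurospheres in which each of 23 assays was detected, in percent, at 0 mM (blue circles, 34 neurospheres) and 100 mM (orange squares, 33), sorted by the difference, with the 4 assays that passed the exact test joined by orange lines. The 2 largest gains end at 97.0%, and the 1 loss goes from 100% to 66.7%.

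The number of detected assays per sphere was 68.6 ± 3.40 in the 34 control spheres and 70.1 ± 2.56 in the 33 at 100 mM (mean ± SD). The difference of 1.49 assays (SE 0.72, permutation p = 0.0447) did not pass after adjustment over 7 comparisons (0.0782). It was 0.82 in run 1 (SE 1.39) and 1.81 in run 2 (SE 0.83).

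Spheres at 100 mM were not shown to be more or less alike than spheres at 0 mM. In relative levels limma called 0 of 72 assays (0.0%) for a difference in absolute deviation from the group median, and 9 had an unadjusted p under 0.05, 7 with a smaller and 2 with a larger spread at 100 mM. The deviation was smaller at 100 mM in 49 assays and larger in 23. The median SD over assays was 1.26 at 0 mM and 1.39 at 100 mM in run 1, and 1.41 and 1.27 in run 2. The distance of a sphere from the centre of its own group, the root mean square over 50 assays, was 1.25 at 0 mM and 1.06 at 100 mM, a difference of -0.19 log2 units (SE 0.13, permutation p = 0.154, 0.179 adjusted over 7 comparisons). Over the 18 assays detected in every neurosphere it was -0.29 (SE 0.14, permutation p = 0.043), which was not adjusted.

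The spread of total signal was nearly equal. The absolute deviation of mean cycle number from the group median averaged 1.32 cycles at 0 mM and 1.33 at 100 mM (difference 0.02, SE 0.37, permutation p = 0.965). The spread of log2 diameter, a comparison added after the plan, was 0.60 at 0 mM and 0.38 at 100 mM. This difference of -0.23 (SE 0.10, permutation p = 0.0308) did not pass after adjustment (0.0719).

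The main axis of variation was not clearly tied to dose. The first principal component of the relative levels of the 50 assays, found without dose labels after run means were removed, held 43.8% of the variance. Its mean score was higher at 100 mM by 2.44 (SE 1.505, permutation p = 0.110, 0.154 adjusted over 7 comparisons), with 5.02 in run 1 (SE 2.26, permutation p = 0.039, not adjusted) and 1.17 in run 2 (SE 1.94). Scores in run 1 ranged from -8.95 to 5.03 at 0 mM and from -12.4 to 8.34 at 100 mM, so the doses overlapped. Over the 67 spheres the score had a Pearson r of 0.41 with mean cycle number and -0.30 with log2 diameter, given as a description. The score and mean cycle number come from the same cycle numbers, while diameter comes from the image. The sign of the component was set so that its score rose with mean cycle number. The sign of that r, and the direction of the score differences between doses, rest on this choice.

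Set-B, which had its own 0 mM neurospheres, was set beside Set-A by a test of the difference between their changes at 100 mM. Set-B was measured in run 1 and in run 3, named from the Ch3 prefix, so the sets shared only run 1. Differences between sets and between runs thus cannot be fully told apart in this test. The changes differed in 45 of 72 assays (62.5%, limma, adjusted p under 0.05). In 39 of the 45 the Set-A change was the nearer to 0, and the median size of change was 0.39 in Set-A and 1.24 in Set-B. Of the 9 assays called in Set-A, 7 differed between the sets. In Set-B 6 of the 9 had the opposite sign, against 36 of all 72 assays. These 6 were all called in Set-B, and 2 of the 9 were called there the same way. Over all 72 assays 52 were called in Set-B.

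All 4 assays described above for relative levels were among the 6 called the opposite way in Set-B. The A031 change was -1.03 in Set-B (SE 0.28) against 2.47 in Set-A, a difference of 3.50 (SE 0.40, limma adjusted p = 4.87e-15). A016 was -2.04 in Set-B (SE 0.35), a difference of 4.32 (SE 0.50, adjusted p = 5.82e-15). A001 was 5.10 in Set-B (SE 0.60), a difference of -7.42 (SE 0.84, adjusted p = 4.7e-15). A035 was 0.93 in Set-B (SE 0.30), a difference of -1.87 (SE 0.42, adjusted p = 3.8e-05). These 4 were chosen from the Set-A changes, which favours large differences from another set. Without normalization the difference between sets was 1.42 for A031 (limma adjusted p = 0.149) and no longer passed, and it was 2.24 for A016 (adjusted p = 0.00798). For A001 and A035 it was larger in size without normalization, at -9.39 (adjusted p = 1.6e-12) and -3.96 (adjusted p = 0.000605).

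Detection in Set-B is given beside that of Set-A as values, and the difference between sets was not tested. A004 was detected in 19 of 34 spheres at 0 mM and in 33 of 33 at 100 mM in Set-B, a gain where Set-A had a loss. A003 was detected in all 34 and all 33 Set-B spheres, so it had no room to rise there. A021 was detected in 24 of 34 and 33 of 33 Set-B spheres, higher at 100 mM in both sets. The assay that no Set-A control detected was found in 20 of 34 Set-B spheres at 0 mM and in 15 of 33 at 100 mM. Its direction differed between the runs of Set-B. In run 1 it went from 0 of 11 spheres at 0 mM to 6 of 11 at 100 mM, and in run 3 from 20 of 23 to 9 of 22.

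**Figure D5:**
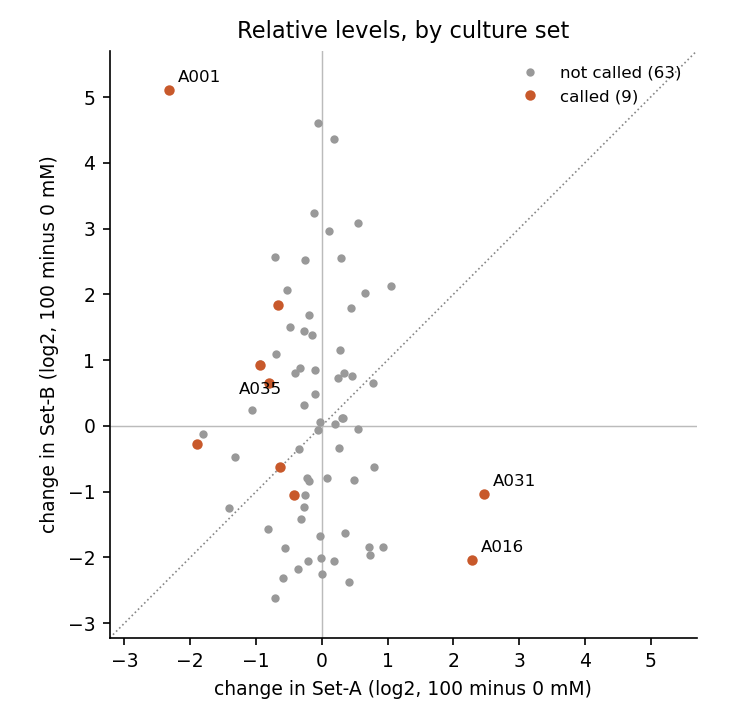
Change in relative level (log2, 100 minus 0 mM) of 72 assays in Set-A (horizontal) and Set-B (vertical), each set with its own 0 mM neurospheres, with the 9 assays called in Set-A in orange and equal change dotted. A031 and A016 lie to the right and below 0, A001 lies to the left and above 0, and the Set-B changes span a wider range than the Set-A changes.

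At the lower doses of Set-A, which share the 0 mM neurospheres with this comparison, the named assays took the following values. A031 was 2.25 at 25 mM (SE 0.34, limma adjusted p = 9.94e-08), 0.18 at 70 mM (SE 0.35, adjusted p = 0.734) and 2.47 at 100 mM. A016 was 0.90 at 25 mM (SE 0.45), -0.66 at 70 mM (SE 0.44) and 2.29 at 100 mM, and only the last passed. A001 was -1.01 (SE 0.55), -0.31 (SE 0.53) and -2.32, and A035 was -0.38 (SE 0.27), 0.41 (SE 0.26) and -0.94, where again the 100 mM values alone passed. The 4 assays were chosen among those that passed at 100 mM, so passing at that dose was fixed by the choice. Differences between the ethanol doses were not tested here. None of the 4 followed a steady order over dose, since at 70 mM each was nearer to 0 than at 25 mM or of the other sign. The sample labels give these doses as 25 and 70 mM, while the treatment protocol has 26 for the lower and the design text 75 for the higher.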

How the data were processed

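Lysates of single neurospheres went straight into reverse transcription and pre-amplification, with no RNA extraction, before EvaGreen quantitative PCR, and the instrument's software gave the cycle numbers, per the labels' protocols. The authors deposited cycle numbers that are not normalized, per the file headers. How efficiently each primer pair amplified, which software version was used and when a value was set to missing is not given in the sources used. Groups, runs, sets and diameters came from the sample titles and labels. No neurosphere was left out, and no 2 columns were identical.

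Relative levels are minus the cycle number, centred per neurosphere on the mean of 50 assays detected in at least 95% of 264 neurospheres. The 72 assays detected in at least 50% were tested and 3 were not. Levels and their spread were fitted in limma 3.58.1 (R 4.3.3) on 132 Set-A neurospheres of 4 doses with run as covariate, or on all 264 for differences between sets, with p-values adjusted by Benjamini-Hochberg across those assays and a threshold of 0.05. Detection was tested with exact conditional Mantel-Haenszel tests. Single values went through two-sided permutation within run, with 100000 resamples, in Python 3.11.15 with numpy 2.4.6. With a covariate, residuals of the model without dose were permuted. Scripts were tested on simulated data.

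The named assays were the 2 largest rises and 2 largest falls among assays called with the same direction in both runs. Assays A003, A021 and A004 were named for detection after their values were seen. The comparison, its members and the tests were chosen with earlier results of these data known. Neurospheres share title labels (A1, B1 and so on) across doses. Same-labelled spheres of the 2 doses and 1 run did not deviate together: the correlation over assays was above 0.1 in 13 of 33 pairs, with a median of 0.02, so the labels were not taken as pairs.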

Additional observations from a re-analysis of the deposited data

Results flagged for a closer look

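Changes at 100 mM that differed between runs or sets, by a test of the difference, are listed here. Between the runs of Set-A 7 of 72 assays differed (limma, adjusted p under 0.05). Among the named assays, the run 2 change minus the run 1 change was -3.61 for A016 and 4.76 for A001. Between Set-A and Set-B 45 of 72 assays differed (62.5%). The Set-A change minus the Set-B change was 3.50 for A031, 4.32 for A016, -7.42 for A001 and -1.87 for A035. The source of these differences was not tested, and the sets shared only run 1.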

How the results depend on the processing

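Without normalization 16 of 72 assays were called (22.2%), against 9 of 72 (12.5%). It gave 5 of 72 in run 1 alone and 27 of 72 in run 2 alone, while centring on the median gave 15 of 72. The run difference was called in 2 assays without normalization, against 7, and the spread in 3 with missing values set to 30 cycles, against 0. Detection gave 0 calls in run 1 alone. The mean cycle difference was -0.26 in run 1 alone and -0.14 there with log2 diameter as a covariate. Detected assays per sphere differed by 0.82 in run 1 alone and by 1.48 when values above 25 cycles counted as missing (permutation p = 0.0533). The log2 diameter difference was -0.22 in run 2 alone, its spread -0.10 in run 1 alone, the distance from the centre -0.29 over assays detected in all neurospheres, and the first component 5.02 in run 1 alone. The spread of mean cycle number was -0.0950 in run 2 alone, of the other sign. Without normalization A035 was 0.44, and 1.20 in run 2 alone, A001 was 1.12 in run 2 alone, and the run difference of A031 was 1.15, or 0.12 on the 5 steadiest assays. The cause was not tested. With the title label as a replicate block, which drops 1 control sphere from the single values, 9 assays were called, the mean cycle difference was -1.46 and the log2 diameter difference -0.52, and no call on these or the 4 named assays changed. Leaving out each of the 67 neurospheres in turn left between 8 and 10 called assays, and the 4 named assays stayed called. Without the 4 spheres of earliest product 10 assays were called, 9 of them shared. The number of spheres, 11 at each dose in run 1, limits what that run alone can show.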

Other observations

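At 0 mM, 45 of the 75 assays were detected in all 34 Set-A spheres, and at 100 mM 54 were detected in all 33. A total of 42 assays were detected in all 67. Cycle numbers over these spheres ran from 2.5 to 26.79, below the 30 cycles run.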
